A study of Mus musculus with 16 samples.

Results

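Remote 3T3 summits are the H3K4me1 summits of unstimulated 3T3 fibroblasts that lay more than 50 kb from every H3K4me1 summit of unstimulated dendritic cells on the same autosome. They were chosen by position in both lists, and 13125 of 80558 autosomal 3T3 summits met the rule (16.3%, exact Clopper-Pearson 95% interval 16.0 to 16.5). A summit is the single base at which a called peak of ChIP-seq signal is highest. Because the rule used both lists, the count, the distances and the absence of dendritic cell summits describe the choice and were not tested.

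The 3T3 library came from an established mouse fibroblast line grown under standard conditions and left unstimulated. It was set against unstimulated dendritic cells grown from mouse bone marrow progenitors. Those progenitors were kept in SCF, IL-3 and IL-6, infected with a retroviral vector carrying a hairpin against the JmjD2d coding sequence, and selected in histidinol, and the dendritic cells were then derived with GM-CSF and SCF. The 3T3 protocol names no hairpin, so cell type and hairpin cannot be told apart. Both libraries used the same anti-H3K4me1 antibody (clone CMA302). Each cell type is 1 library, so no value has a replicate error, no p-value is given, and intervals cover counting error only. Stimulated cells, the acetylation marks and input DNA were not analysed here.

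One label of the 3T3 library, its cell type field, reads dendritic cells. The sample title, the description, the culture protocol and the header of the list all read 3T3, and the library was treated as such. Marker genes of fibroblasts and of dendritic cells could not be checked, since the lists are in mm9 and the gene table at hand is of GRCm38. For the same reason no summit below is assigned to a gene and no sequence is shown.

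H3K4me1 is monomethylation of lysine 4 on the tail of histone H3. It marks enhancers, the DNA elements that bind transcription factors and raise transcription of genes that may lie far away, and it also flanks active promoters. Enhancers differ between cell types more than promoters do. An enhancer can carry the mark while primed and gain acetylation of H3 lysine 27 when active, so the mark alone does not show activity. Fibroblasts are mesenchymal cells that build extracellular matrix, and dendritic cells are blood-derived cells that present antigen.

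Remote territory, meaning all positions over 50 kb from a dendritic cell summit, was wide and thinly filled by 3T3 summits. It covered 1120.1 Mb of the autosomes between the first and last summit (46.6%), the other 1286 Mb lying within 50 kb of a dendritic cell summit. The 3T3 list had 11.7 summits per Mb in remote territory and 52.4 per Mb in the rest, a ratio of 4.48 between the rest and remote territory. The density of 3T3 summits was lower in each farther distance class, with 25.2 per Mb at 20 to 50 kb, 21.6 at 50 to 75 kb, 15.8 at 100 to 200 kb and 5.86 at 500 to 1000 kb. Beyond 1000 kb it was 1.38 per Mb, over 114.8 Mb of sequence. These lengths count all positions, and how much of them 36 bp reads could be placed on was not assessed. No jump marked the 50 kb limit, so the limit cuts a gradual decline.

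**Figure D1:**
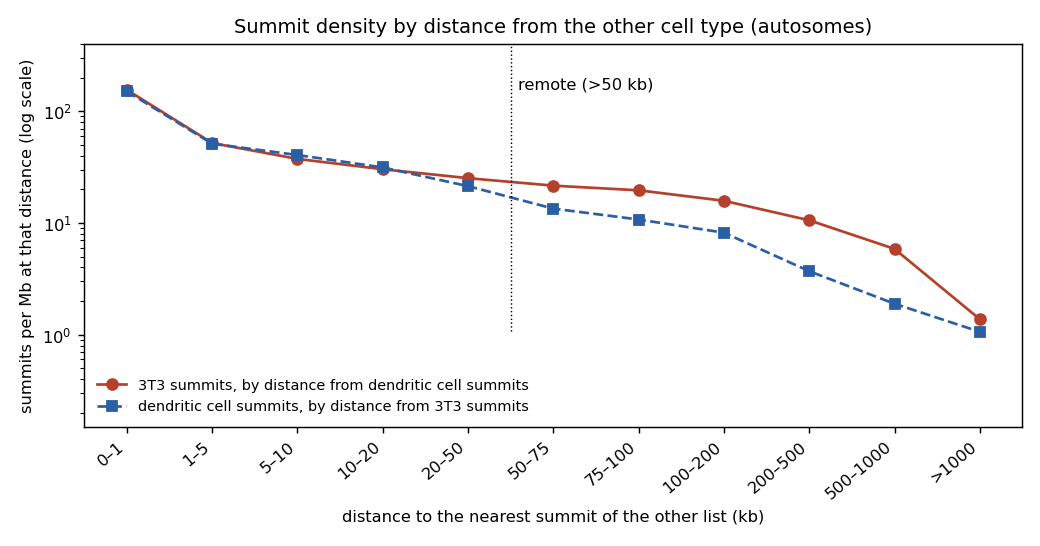
Summits per Mb of autosome (vertical, log scale) at each distance class from the nearest summit of the other list (horizontal, kb), for 3T3 summits (circles) and dendritic cell summits (squares). Right of the dotted line, 3T3 density runs from 21.6 per Mb down to 1.38, and dendritic cell density from 13.4 per Mb down to 1.06.

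The dendritic cell list, treated the same way, had a smaller remote part. Of 78214 autosomal dendritic cell summits, 5361 lay over 50 kb from a 3T3 summit (6.85%, 6.68 to 7.03). Their density in the territory remote from 3T3 was 5.63 per Mb over 952.2 Mb. Depth is unknown for both lists, and a list called more sparsely leaves more of the other remote. With 39898 top-scoring summits kept in each list, the remote share was 23.4% for 3T3 (23.0 to 23.9) and 14.6% for dendritic cells (14.3 to 15.0). The 3T3 share was thus the higher one at equal numbers too. The full lists were already close in number, at 80558 and 78214 autosomal summits, so equal numbers cannot address unequal depth.

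Most remote 3T3 summits lay far beyond the limit. The median distance to a dendritic cell summit was 146377 bp, with a middle range (25th to 75th percentile) of 83209 to 293178 bp. A distance over 100 kb was found for 8707 remote summits (66.3%), over 500 kb for 1458 (11.1%), over 1 Mb for 158 (1.20%) and over 2 Mb for 5. Just inside the limit, between 50000 and 51000 bp, were 124 summits with a median score of 31. Just outside, between 49000 and 50000 bp, were 145 with a median score of 29. The score is a value of the authors' peak list, taken here as the height of the signal at the summit.

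Remote summits shared stretches of chromosome. The dendritic cell list left 2965 intervals of over 100 kb between neighbouring summits, the only places apart from chromosome ends where a remote summit can lie. At least 1 remote summit was found in 1603 of these stretches (54.1%), and 1362 had none, of which 673 held no 3T3 summit at all, near the edges or otherwise. Those 673 covered 318.9 Mb of the 1415 Mb in all such stretches, territory with no H3K4me1 summit called in either cell type. The remaining 39 remote summits lay in 6 chromosome-end parts outside the first or last dendritic cell summit. Stretches with a remote summit were longer, with a median of 286.0 kb against 161.3 kb for those without. A longer stretch has more room over 50 kb from both ends, so this difference is partly set by the rule.

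A small number of stretches held much of the set. The median stretch with any remote summit had 4 of them, and 417 stretches (26.0%) had 1. In contrast, 171 stretches with 20 or more held 6233 remote summits (47.5% of all), and 27 with 50 or more held 2000 (15.2%). The 189 fullest stretches (11.8% of those occupied) were enough to reach 50% of the set. The 27 fullest were spread over 12 chromosomes, with 4 each on chromosomes 13 and 11 and 3 each on chromosomes 8, 4 and 9. Remote density in these 27 ran from 18.4 to 107.0 per Mb, and in 16 of them it was above the 52.4 per Mb of 3T3 summits outside remote territory. The choice of the fullest stretches by their counts favours high values.

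Longer stretches were less densely filled. Stretches of 100 to 200 kb held 27.8 remote summits per Mb of remote territory, those of 200 to 500 kb 21.2, those of 500 to 1000 kb 16.0 and those of 1000 to 2000 kb 10.4. The 120 stretches over 2000 kb held 2.68 per Mb, and 30 of these had no 3T3 summit. The longest stretch, 7380 kb on chromosome 7 from 39325561 to 46705692, was empty in both lists. The next, 6989 kb on chromosome 6 from 73264970 to 80253752, held 3 remote summits.

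The fullest stretch lay on chromosome 8 from 105042393 to 106635031, a length of 1593 kb with 144 remote summits. Their median score was 32.5, and 18 (12.5%) reached the score of 75 that bounds the top decile of the autosomal 3T3 list. Over all autosomal 3T3 summits 10.2% did so, more than 10% because of ties. On chromosome 8 as a whole, 11.7% of remote summits and 20.6% of the other 3T3 summits did so. The 5 highest remote summits of the stretch were at 105797517 with a score of 174, 105266195 with 155, 105840200 with 154, 106405006 with 139 and 106546483 with 118. Of these 5, the summits at 105797517 and 105840200 lay near each other, and the others were farther apart along the stretch. Those at 105797517 and 105840200 lay 755124 and 794831 bp from the nearest dendritic cell summit. Neighbouring remote summits in the stretch were a median of 7111 bp apart and at most 53.1 kb apart, so marked sites ran along it with no long break.

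The second, on chromosome 6 from 92419037 to 94233948, held 138 remote summits over 1815 kb with a median score of 36.5 and 19 (13.8%) in the top decile. On chromosome 6 as a whole, the top decile held 10.2% of remote summits and 14.3% of the other 3T3 summits. The highest of the stretch were at 93206894 with a score of 130, 94091875 with 125, 94174886 with 108, 93224461 with 106 and 93235341 with 105. Of these, the summits at 93206894, 93224461 and 93235341 lay close together near the middle of the stretch, and those at 94091875 and 94174886 near its right end. The third, on chromosome 16 from 85173407 to 87387966, held 113 remote summits over 2215 kb and was lower, with a median score of 29 and 2 summits (1.77%) in the top decile. Its highest summit, at 85999138, scored 132 and lay 825731 bp from the nearest dendritic cell summit. The next 4, at 86124737, 86142607, 86244680 and 87267797, scored 88, 73, 72 and 67. The widest break between remote summits there was 234.5 kb.

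The other stretches among the 10 fullest held between 74 and 97 remote summits each. On chromosome 4 there were 97 from 80397339 to 82158875 and 81 from 83257999 to 84623339. On chromosome 11, 89 lay from 55570595 to 57258908. Chromosome 13 had 3 of the 10, with 87 remote summits from 25883205 to 28393245, 75 from 47285872 to 48532616 and 74 from 71072274 to 72761676. A further stretch on chromosome 8, from 42906993 to 46415001, held 76 with a break of 1358 kb inside it. Median scores in these 7 ran from 28 to 40, the highest being that of the chromosome 13 stretch starting at 47285872.

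**Figure D2:**
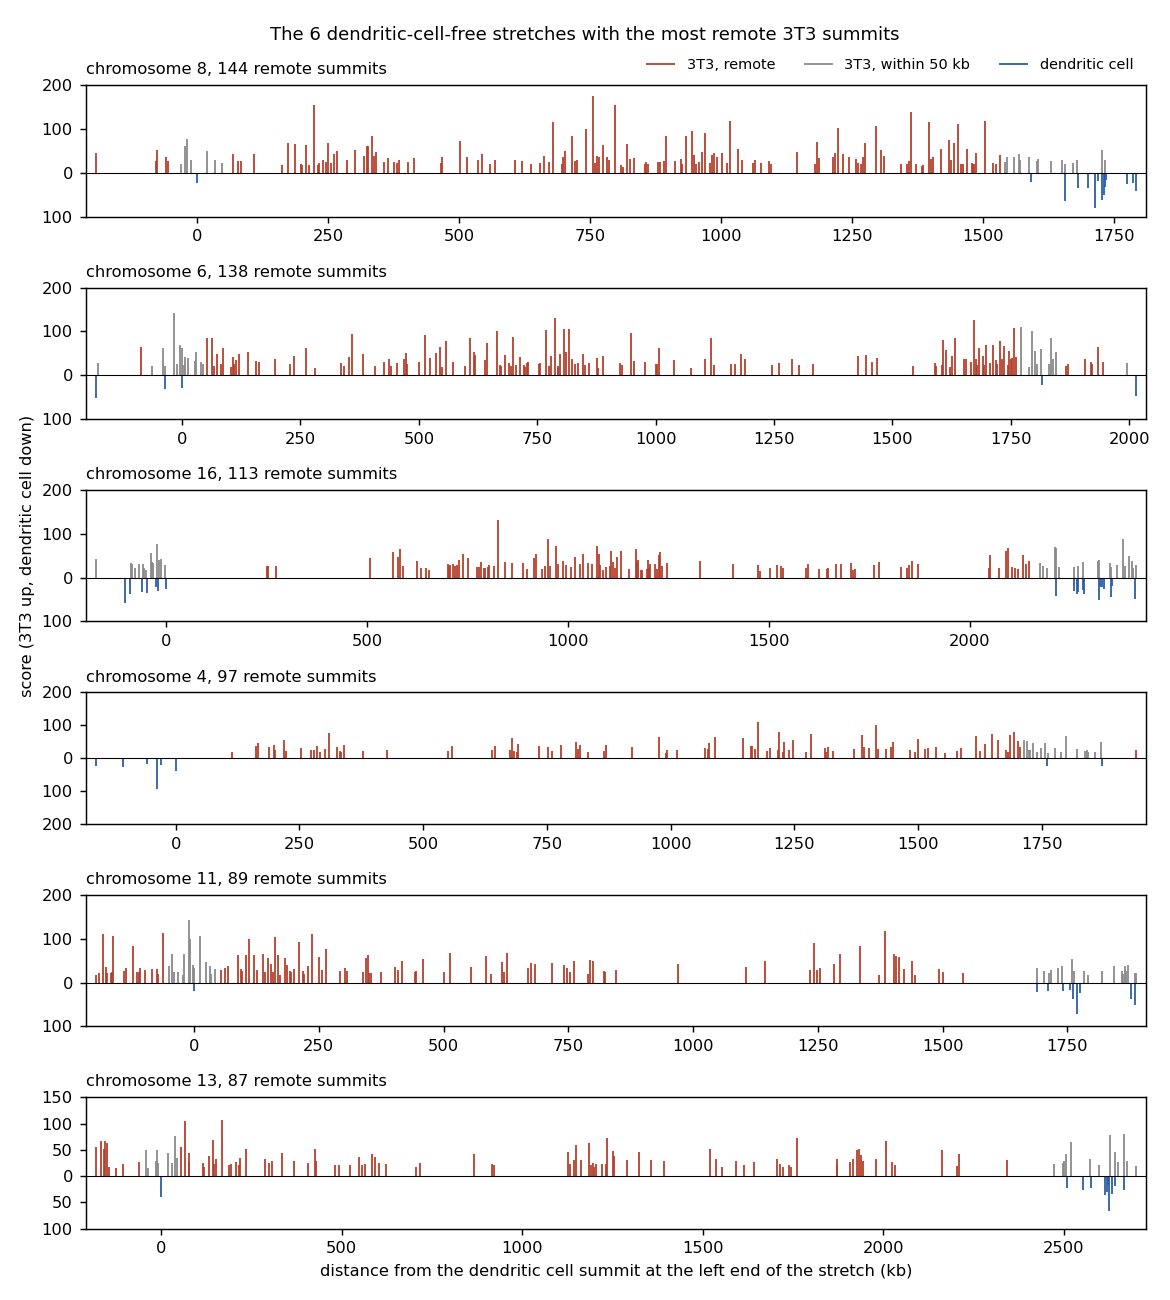
Scores (vertical) of 3T3 summits (upward) and dendritic cell summits (downward) along the 6 fullest stretches, by distance in kb from the dendritic cell summit at the left end. Remote 3T3 summits, 144, 138, 113, 97, 89 and 87 inside the stretches from top to bottom, run along the stretch, and dendritic cell summits appear only at and outside its ends (200 kb shown on each side, which can hold remote summits of a neighbouring stretch).

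Within stretches, remote summits formed some dense groups. Joining remote summits whose neighbours lay within 10000 bp gave 7552 groups, of which 4842 were single summits and 31 had 10 or more. The largest, inside the second fullest stretch on chromosome 6, ran from 94085596 to 94180744 and held 21 remote summits in 95.1 kb, with a median score of 40. It was followed by a group of 18 in 76.1 kb on chromosome 7, between 89483750 and 89559877, with a median score of 32.5. Groups of 16 were found at 4 places, among them chromosome 6 between 101201855 and 101285842, where the median score was 49.5, and chromosome 8 between 46688226 and 46766752, where it was 39. A group of 14 on chromosome 10, between 76547738 and 76615317, had the highest median score of the 10 largest groups, at 61. These groups were chosen after their values were seen.

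Taken over the whole set, remote summits were grouped less closely than the other 3T3 summits. Single summits made up 36.9% of remote summits and 22.4% of the others, and groups of 5 or more held 18.2% of remote summits and 30.9% of the others. The median distance to the nearest other 3T3 summit, remote or not, was 6881 bp for remote summits and 5209 bp for the others. Among the others this spacing was 4924.5 bp for those within 1 kb of a dendritic cell summit. It was 6634 bp for those at 10 to 20 kb and 6839.5 bp for those at 20 to 50 kb. Wider spacing was thus not particular to remote summits. A neighbour within 10000 bp was found for 64.3% of remote summits (63.5 to 65.1) and 77.8% of the others (77.5 to 78.1). No 3T3 neighbour within 50000 bp was found for 983 remote summits (7.49%) and 1038 others (1.54%). Wider spacing of remote summits held on each of the 19 autosomes. Distances under 1000 bp were rare in both, at 0.122 and 0.209%.

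Scores of remote summits were somewhat lower. The median score was 31 for remote summits (middle range 23 to 45) and 34 for the other 3T3 summits (25 to 51), so the distributions overlapped over most of their range. Among the others the median was 36 within 1 kb of a dendritic cell summit. It was 32 at 5 to 10, 10 to 20 and 20 to 50 kb. Within the dendritic cell list, summits remote from 3T3 had a median of 31, against 37 for the rest. A lower score was thus not particular to remote 3T3 summits. The top decile (a score of at least 75) held 904 remote summits, 6.89% (6.46 to 7.33), against 10.9% of the others (10.7 to 11.1). Low scores, at 20 or below, were found for 12.6% of remote summits (12.1 to 13.2) and 10.3% of the others (10.02 to 10.5). Summits of one library are not replicates, so these intervals do not say how a second library would differ.

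**Figure D3:**
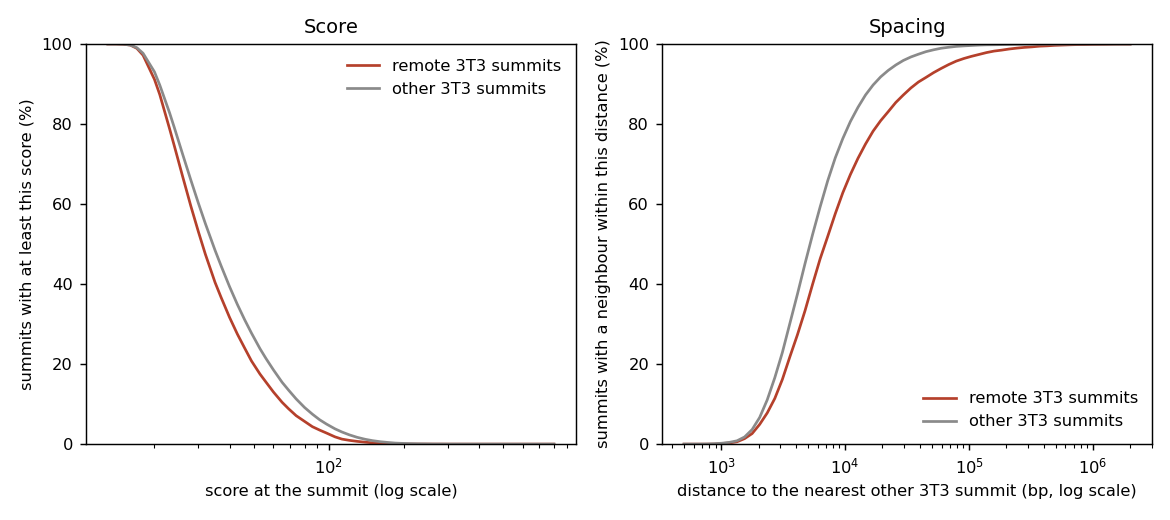
Left, share of summits (%) with at least a given score (log scale). Right, share of summits (%) with another 3T3 summit within a given distance (bp, log scale). The curve of remote 3T3 summits lies below that of the other 3T3 summits in both, with medians of 31 against 34 for the score and 6881 against 5209 bp for the spacing.

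The score varied with spacing in both sets, and the gap between them with it. Among summits with a 3T3 neighbour at 5000 to 10000 bp, the median score was 34 for remote summits and 38 for the others, and the top decile held 11.4 and 17.0%. With no neighbour within 50000 bp the median was 26 in both sets, and the top decile held 1.02 and 1.16%. Summits with a neighbour within 2000 bp were also low, at medians of 26 and 27. The lower score of remote summits was thus seen in the middle classes of spacing and was small or nil at both extremes.

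Remote summits in fuller stretches scored slightly higher. The median was 28 for the 420 remote summits that were alone in their stretch or chromosome end, 30 where there were 5 to 9, and 32 where there were 50 or more. The top decile held 2.62% (1.31 to 4.64) of the lone summits and 8.30% (7.13 to 9.60) of those in stretches with 50 or more. Scores were lower at larger distances, with medians of 31 at 50 to 75 kb, 30 at 200 to 500 kb and 28 beyond 1000 kb. At these distances the top decile held 8.03, 5.59 and 0.633%.

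Strong remote summits nevertheless existed. The highest, on chromosome 8 at 46665946, had a score of 283, and the closest dendritic cell summit was 141348 bp off. Its stretch, between 46524598 and 46960604, held 43 remote summits. Of the other autosomal 3T3 summits, 14 scored more. The next were on chromosome 13 at 71512972 with a score of 260, on chromosome 8 at 64234785 with 220, and on chromosomes 15 at 34723400 and 17 at 64542102 with 193 each. Among the 100 highest-scoring autosomal 3T3 summits, 3 were remote, fewer than the 16.3% remote among all autosomal 3T3 summits. The rest of the 10 highest remote summits scored 179 to 189, at 112320791 on chromosome 5, 50859050 on chromosome 13, 96378340 and 120868109 on chromosome 8, and 94736413 on chromosome 11. The summit at 120868109 was the most distant of the 10, at 541536 bp from a dendritic cell summit. Chromosome 8 thus held 4 of the 10, and it held 8.91% of all remote summits. Of the other 3T3 summits on chromosome 8, 20.6% were in the top decile, against 10.9% over all autosomes. All 10 shared their stretch with other remote summits, 5 at the least in number counting the summit itself, and 74 at the most.

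The 10 most distant remote summits had scores of 16 to 44, and 7 of them had a 3T3 neighbour within 20000 bp. A pair on chromosome 6 at 77051995 and 77057625 lay 3201757 and 3196127 bp from the nearest dendritic cell summit, with scores of 31 and 40. They stood 5630 bp apart and shared their stretch with 1 more remote summit. On chromosome 1, summits at 112380335 and 113762095 scored 16 and 26, and the nearest other 3T3 summit was 1381760 and 1298263 bp away. The summit on chromosome 14 at 82466156 scored 44 at a distance of 2009283 bp. The other 5 of the 10 lay together on chromosome 12 between 50483083 and 50580283, with scores of 21 to 31, in a stretch of 24 remote summits. None of the 10 reached the top decile.

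The dendritic cell summits that bound occupied stretches were weak and isolated within their own list. The 2947 summits at such ends had a median score of 29 (middle range 23 to 39), against 37 (26 to 56) for the other 75267 autosomal dendritic cell summits. Their nearest dendritic cell neighbour lay a median of 22322 bp away, against 4968 bp. A bound is by definition next to an interval of over 100 kb, so wide spacing is partly set by the choice. Bounds of stretches without a remote summit were not compared separately. Neither score nor spacing is therefore shown to be particular to the bounds of occupied stretches. A 3T3 summit within 1000 bp was found for 32.2% of the bounding summits (30.5 to 33.9) and 30.8% of the others (30.5 to 31.1). No 3T3 summit within 50 kb was found for 481 bounding summits (16.3%) and 4880 others (6.48%). The bounds were thus near a 3T3 summit about as often as elsewhere at 1000 bp, and far from every 3T3 summit more often.

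Remote summits were found on all 19 autosomes in unequal shares. The remote share of a chromosome's 3T3 summits was highest on chromosome 8 (1170 of 5588, 20.9%, 19.9 to 22.0), chromosome 1 (20.4%, 19.2 to 21.6) and chromosome 3 (19.2%, 18.1 to 20.4). It was lowest on chromosome 19 (196 of 2763, 7.09%, 6.16 to 8.12), chromosome 17 (11.6%, 10.6 to 12.7) and chromosome 11 (12.5%, 11.7 to 13.4). The median chromosome had 17.2%. Neighbours in this order mostly had overlapping intervals, and the interval of chromosome 19 overlapped that of no other chromosome.

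The remote share ran against dendritic cell density. Across the 19 autosomes, Spearman's rho between remote share and dendritic cell summits per Mb was -0.76. Both measures come from the same dendritic cell list, chromosomes are not replicates, and the value is a description. Chromosome 19, with 46.3 dendritic cell summits per Mb, had 30.8% of its span in remote territory, and chromosome 8, with 28.8 per Mb, had 52.0%. Chromosomes 1 and 3, with 27.3 and 26.4 per Mb, had 51.3 and 52.5%.

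Chromosome 8 was more densely filled than chromosomes with a similar dendritic cell density. Its remote territory held 17.6 remote summits per Mb, against 9.30 on chromosome 1, 10.5 on chromosome 3 and 6.93 on chromosome 12, where dendritic cell summits numbered 28.2 per Mb. Higher values were found on chromosome 13 (20.9 per Mb) and chromosome 11 (19.2 per Mb). Chromosome 8 held 8.91% of all remote summits (8.43 to 9.41) and 6.55% of the other 3T3 summits. Whole-chromosome 3T3 density was 43.6 per Mb on chromosome 8, 42.5 on chromosome 13, 50.4 on chromosome 11 and 20.8 on chromosome 12. Across the 19 autosomes, Spearman's rho between it and the density in remote territory was 0.8. Both come from the same 3T3 list, so the value is a description. Chromosomes 19 and 17 had 47.6 and 39.8 3T3 summits per Mb but only 11.0 and 11.2 per Mb in remote territory. The part of whole-chromosome 3T3 density in the result was not tested. Input DNA was not analysed, so the DNA copy number of each chromosome in 3T3 cells is unknown here. Its part in the densities and scores by chromosome was not tested.

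On every autosome the median score of remote summits was below that of the other 3T3 summits of the same chromosome, by 1 to 8. The widest gaps were on chromosome 8, with a median of 32 for remote summits and 40 for the others, and on chromosome 19, with 30 and 38. Medians of remote summits spanned a narrow range, 29 to 32, over the chromosomes. Chromosome 8 had the highest median of the other 3T3 summits, and its remote median of 32 was matched on chromosomes 6, 9, 15 and 17. The top decile nonetheless held 11.7% of its remote summits and 20.6% of its others. On 18 chromosomes remote summits were less often in the top decile than the others, the exception being chromosome 12 with 4.81 and 3.98%.

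**Figure D4:**
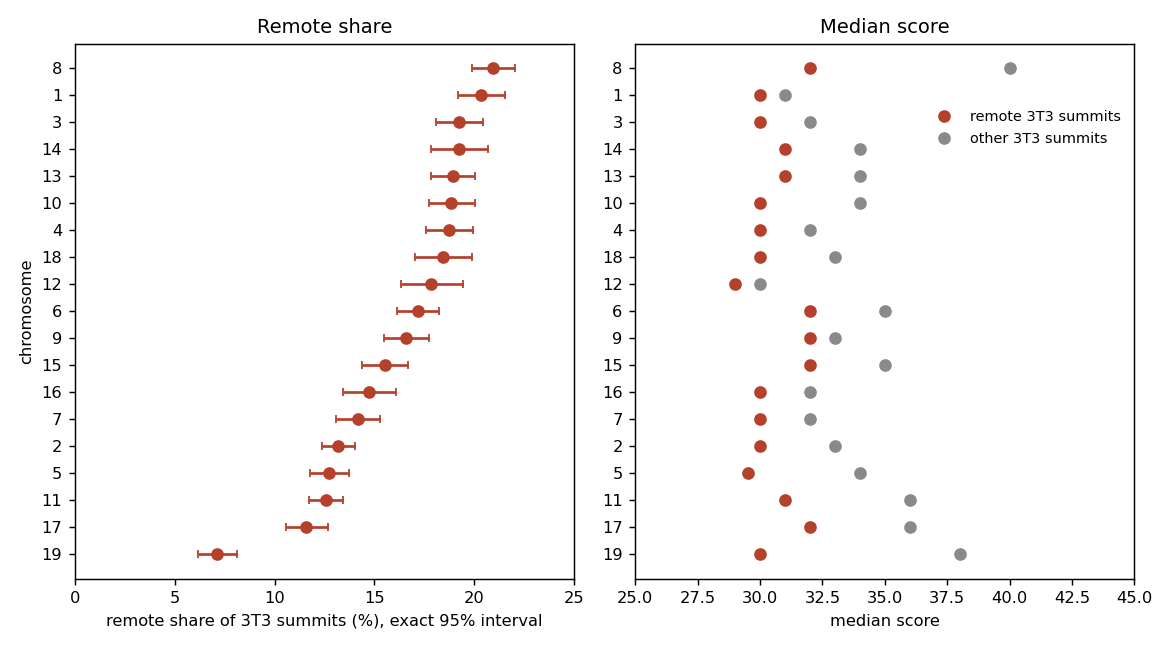
Left, remote share of 3T3 summits (%) on each autosome with its exact 95% interval. Right, median score of remote and of other 3T3 summits on the same chromosome; the share runs from 20.9% on chromosome 8 to 7.09% on chromosome 19, and the remote median is the lower one on all 19.

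Position along the chromosome made a smaller difference. With the span from the first to the last summit of each autosome divided into 5 equal parts, in the order of mm9 positions, the remote share was 16.0% in the first part (15.4 to 16.6), 18.97% in the second (18.3 to 19.6), then 17.5% and 16.1%, and 13.7% in the last (13.2 to 14.1). Dendritic cell density was highest in the last part, at 39.9 per Mb, and lowest in the second, at 29.1 per Mb.

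The deposited positions were also set beside moved ones. The dendritic cell list was moved round each chromosome by 0.5, 1, 2, 5 and 10 Mb in both directions, which keeps its internal spacing. As deposited, 16.3% of 3T3 summits were remote, whereas the 10 moved lists left 28.6 to 45.6% remote, with the lowest shares at 0.5 Mb. Fewer 3T3 summits were thus remote than at any of these offsets, and even at 0.5 Mb the number was 23059 or more against 13125. These are values at fixed offsets and not a test.

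Summits that were remote as deposited differed from those remote from moved lists in spacing and score. The median distance to the nearest 3T3 summit was 6881 bp as deposited and 5390 to 5765 bp with moved lists. No 3T3 neighbour within 50000 bp was found for 7.49% as deposited and 2.58 to 4.14% with moved lists. Stretches or chromosome ends with a single remote summit made up 26.1% of those occupied as deposited and 15.0 to 17.4% with moved lists. Those occupied held a mean of 8.16 remote summits as deposited and 11.5 to 21.0 with moved lists. The share with a single one was not adjusted for this. The median score was 31 as deposited and 32 to 33 with moved lists, and the top decile held 6.89% as deposited and 8.27 to 10.1% with moved lists. Chromosome 8 held 8.91% of remote summits as deposited and 7.03 to 8.62% with moved lists.

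Dense occupied stretches were fewer than with moved lists. At least 20 remote summits were found in 172 stretches or chromosome ends as deposited, and in 383 to 510 with moved lists. The fullest stretch held 144 as deposited and 140 to 484 with moved lists, 9 of the 10 being higher. Stretches or chromosome ends with 20 or more held 47.7% of remote summits as deposited and 57.3 to 80.6% with moved lists. Moved lists left 23059 to 36714 summits remote against 13125, and a larger total gives more full stretches. These counts and shares were not adjusted for that total, and its part was not tested.

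**Figure D5:**
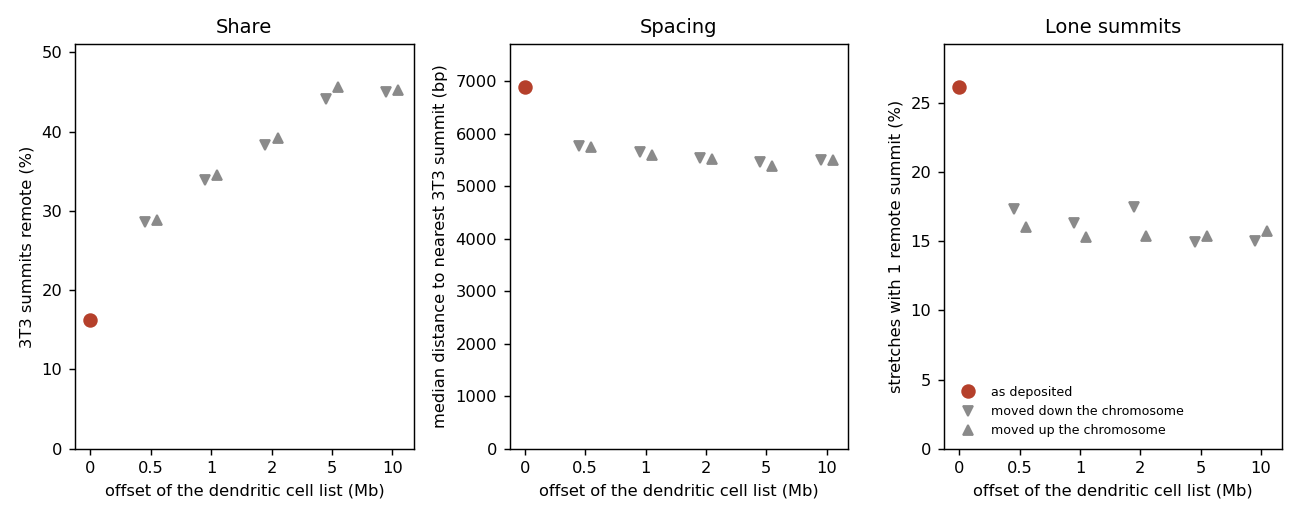
Share of 3T3 summits that are remote (%), their median distance to the nearest 3T3 summit (bp), and the share of occupied stretches or chromosome ends with 1 remote summit (%), as deposited (offset 0) and with the dendritic cell list moved by each offset (Mb). The deposited values, 16.3%, 6881 bp and 26.1%, lie outside the moved ranges of 28.6 to 45.6%, 5390 to 5765 bp and 15.0 to 17.4%. The share with 1 remote summit is not adjusted for the larger number of remote summits with moved lists.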

How the data were processed

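H3K4me1 ChIP-seq summit lists of unstimulated 3T3 cells (81860 summits) and unstimulated dendritic cells (79796) were used, and the other 14 of the 16 samples were not analysed. Per the labels' protocols, DNA from fixed nuclei was sheared to about 300 bp, amplified for 18 cycles and read as single 36 bp reads. The submitters' processing notes name Bowtie, MACS 1.4 and mm9. The list headers give a p threshold of 1e-04 for calling, a 150 bp shift, and neither a fragment model nor a local background. The sources used here do not say whether input DNA was used in calling. For each summit the authors deposited a position and an unnamed score, a whole number of at least 13 taken here as signal height at the summit. Since nothing records a scaling between the lists, scores were set side by side only within the 3T3 list or within the dendritic cell list. Read totals are not given, so depth is unknown.

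Distances were computed between 1-based mm9 positions, and chromosomes X, Y and M were left out of the set. Shares carry exact Clopper-Pearson 95% intervals. They take summits as independent, although neighbouring summits can belong to one marked region. Moved lists were wrapped within the span covered by both lists. Named items were the 10 highest, the 10 most distant, the 10 fullest stretches, the 5 highest summits in each of the 3 fullest, and the 3 highest and lowest chromosomes. The set, the lists and the tests were chosen with earlier results of these data known. The computation placed all positions correctly on 4 artificial lists of 7600 positions. Python 3.11.15, numpy 2.4.6, pandas 2.3.3, scipy 1.17.1 and matplotlib 3.10.9 were used. Alternatives covered the distance, equal numbers of top-scoring summits, a minimum score of 20 for dendritic cell summits, merging within 1000 bp and omission of chromosome 8. Planned gene lists and markers were left out because no mm9 annotation was at hand.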

Additional observations from a re-analysis of the deposited data

Results flagged for a closer look

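The X chromosome was outside the set. Of its 1300 3T3 summits, 335 lay over 50 kb from a dendritic cell summit (25.8%, 23.4 to 28.2). The autosomal share was 16.3%, and single autosomes ran from 7.09 to 20.9%. A count of 3, taken as a floor for listing, would give 0.231%, which says nothing about the X chromosome. The X result is listed because these summits entered no comparison above. Of 1578 dendritic cell summits there, 310 were remote from 3T3 summits (19.6%, 17.7 to 21.7). The median score of the X-linked 3T3 summits was 26 for remote and 26 for other summits.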

How the results depend on the processing

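Under all 6 alternatives remote 3T3 summits had a lower median score and a wider median spacing than the other 3T3 summits. Of 35 recomputed values, 24 stayed within the counting interval, or within 1.5 times the count, and 11 did not. With a distance of 100000 bp, remote summits numbered 8707, in 891 stretches, with 6.37% in the top decile, a median spacing of 7051 bp and 9.57% on chromosome 8. With 25000 bp there were 2883 stretches, and 7.52% of remote summits were in the top decile. Keeping 39898 top-scoring summits per list gave a median score of 49, a median spacing of 11188 bp, a top decile share of 7.88% and a chromosome 8 share of 9.63%; fewer summits in each list widen spacing, and the score filter raises the median by construction. No paired analysis was possible because each cell type is 1 library, and none could be left out. Depth is unknown, so a missing dendritic cell summit means only that none was called.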
